A study of Orbicella faveolata with 48 samples.

Results

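The fragments of the mountainous star coral Orbicella faveolata described here came from inshore reefs of the Florida Keys and were kept without heat. They are 18 of 48 RNA libraries: all 9 inshore control libraries of day 31 and all 9 inshore control libraries of day 5, both at 30 °C, taken by their labels for habitat, temperature and time. The other groups of the series were offshore controls (3 libraries at day 31 and 3 at day 5, 30 °C), inshore heated fragments (9 at day 31 at 32 °C and 9 at day 5 at 33 °C) and offshore heated fragments (3 at day 31 at 32 °C and 3 at day 5 at 33 °C). All had first been acclimated in the experiment, per the labels' protocols. The labels do not state from which event the days were counted, or whether fragments of the 2 days stood in the same tanks or were extracted and sequenced together. Day, time in captivity and any batch that followed the sampling day cannot be told apart. The comparison shows how far the transcripts of control corals moved between the samplings in the absence of heat.

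A reef-building coral is an animal with single-celled photosynthetic algae living inside the cells of its inner tissue layer. RNA from such a fragment therefore holds transcripts of the coral and of its algae, which were counted in separate tables. Colonies of 1 species commonly differ from each other in their standing transcript levels, and corals moved from a reef to a tank meet other light, food and flow than at home. Levels in bulk tissue add up all cell types, so that fewer cells of a type and less RNA per cell cannot be told apart.

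Every library carried a tag of letters and a number. At day 31 the tags were A2, A4, A5, B2, B3, BLY5, D4, D5 and D6. At day 5 they were A3, A4, A6, B4, BLY5, BLY6, D3, D5 and D6. The letters A and D thus had 3 libraries on each day, B had 2 at day 31 and 1 at day 5, and BLY had 1 at day 31 and 2 at day 5. Only A4, BLY5, D5 and D6 stood in both. The labels also gave a genotype, with In1 for every A and In3 for every D library. In2 stood for B2 and B3 at day 31 and for the BLY libraries at day 5, whereas In4 stood for BLY5 at day 31 and for B4 at day 5. Inshore heated libraries carried the same genotype labels by letter and day. All offshore libraries had the letter C. Their genotypes O1, O2 and O5 stood for C1, C2 and C5 at day 5 and for C2, C4 and C5 at day 31, in both arms. Coral counts ran from 4726663 to 6421547 per library at day 31 and from 5017003 to 6012518 at day 5, and algal counts from 846862 to 1360639 over both days. Of 87440 coral features, each an assembled transcript sequence with an identifier and no gene name in the files, 25873 had enough counts to be tested.

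The transcript profiles of the 18 libraries were ordered mainly by letter, and the day came second. The letter accounted for 57.6% of the squared distance between libraries on log2 CPM, the counts of a feature scaled to a common library size, and the day for 6.58%, which was 15.5% of what remained within letters. No other arrangement of the days within the letters gave a share as large: the exact permutation p was 0.000278, the smallest that 3600 arrangements allow. The share of the day lay between 4.66% and 9.86% with another prior count, with the 1000 most variable features and without each letter in turn, and its exact permutation p was at most 0.00556.

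After the mean of each day was removed, libraries of the same letter resembled each other across the days. Pearson's r over the tested features, which share library and depth, was 0.53 to 0.63 between A libraries of day 31 and day 5. It was 0.46 to 0.64 between D libraries and 0.65 to 0.66 between BLY libraries. Between libraries of different letters the median was -0.23 and the highest value 0.12. By r, each of the 18 libraries had its closest match on the other day within its own letter. By Euclidean distance on log2 CPM this did not hold for B. B2 and B3 of day 31 lay closest to D5 of day 5 (156 and 154, against 165 each to B4). B4 of day 5 lay closest to BLY5 of day 31 (158). A shared number added little: r of the 4 tags present on both days was 0.55 to 0.66, within the range of other tags of the same letters in A and D, and 0.66 against 0.65 in BLY.

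The B libraries resembled each other least. B2 and B3 of day 31 correlated at only 0.16 and 0.18 with B4 of day 5, and at 0.07 with each other. BLY5 of day 31, labelled In4, correlated at 0.66 and 0.65 with BLY5 and BLY6 of day 5, both labelled In2, and at 0.11 with B4 of day 5, which shares its In4 label. The letter, not the genotype label, was therefore kept as the block in all tests of the day. For B this does not rest on resemblance. Euclidean distances on log2 CPM between B libraries were 153 to 165, against a mean of 165 between libraries of different letters. The change within B therefore compares fragments about as unlike as those of different letters.

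**Figure D1:**
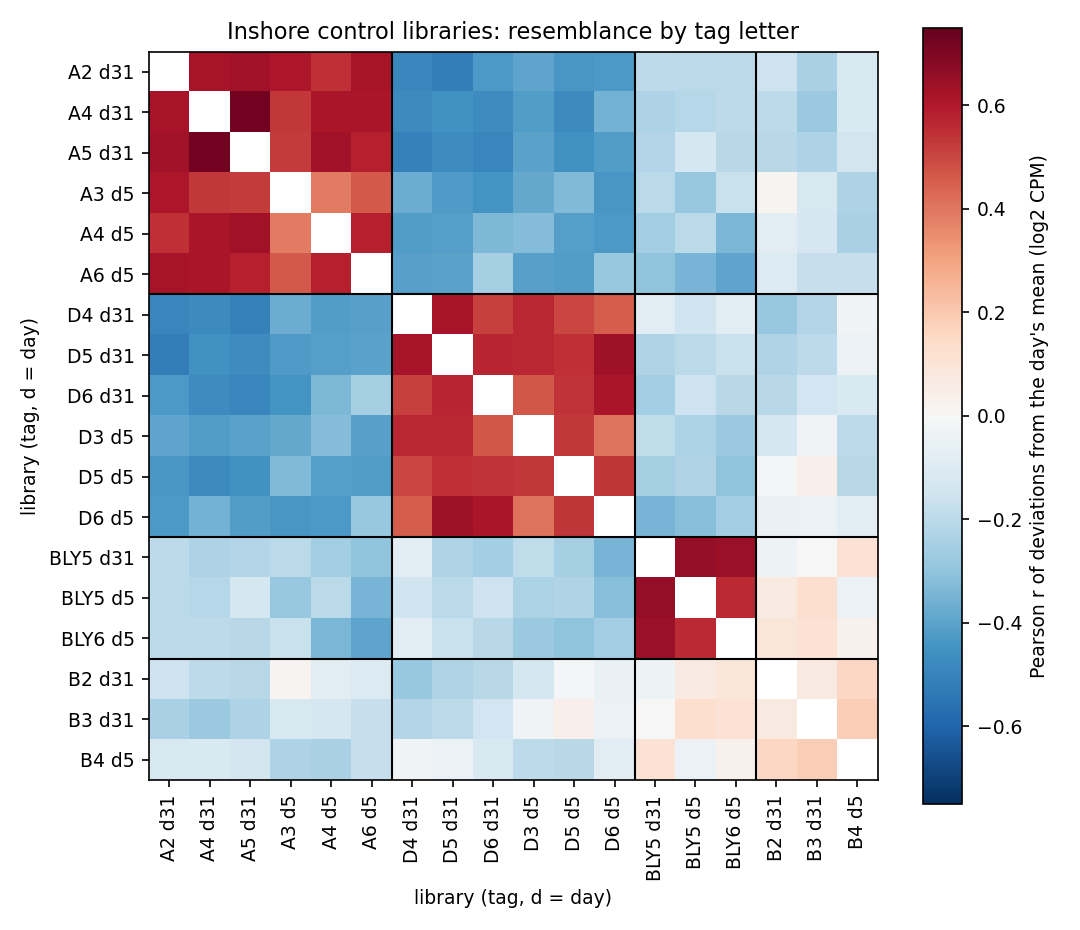
Pearson's r between the 18 inshore control libraries over 25873 coral features, as deviations of log2 CPM from the mean of their day; both axes list libraries by tag and day (d31 and d5), and lines separate the letters A, D, BLY and B. The A, D and BLY blocks are positive within and across days, from 0.39 to 0.72, whereas B libraries reach at most 0.18 with each other.

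Fragments of day 31 lay closer together than those of day 5 within the letters that had 3 libraries on both days. The mean distance between the A libraries was 73.9 at day 31 and 104 at day 5, as the Euclidean distance on log2 CPM. Between the D libraries it was 85.8 at day 31 and 98.7 at day 5. These are 3 pairs a day and letter, given as a description.

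Between day 31 and day 5, 490 of 25873 coral features changed (edgeR quasi-likelihood F test with the letter as a block, Benjamini-Hochberg adjusted p under 0.05), a share of 1.89%. Of these, 206 rose (0.796%) and 284 fell (1.1%). Without an adjustment, 4972 features (19.2%) had p under 0.05. When libraries were scaled by their totals in place of TMM factors, the 445 calls split the other way, into 251 that rose and 194 that fell. DESeq2 called 1367 features, 476 of them among the 490.

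The size of this count rested on which libraries entered. Without BLY5 of day 31, the only BLY library of that day, 4 features were called. Leaving out 1 other library of day 31 gave 94 calls without A4, 136 without D6, 153 without A2, 155 without A5, 158 without D5 and 263 without D4. Leaving out 1 library of day 5 gave 216 without D6, 253 without D3, 289 without A4, 299 without B4, 310 without A3 and 968 without A6. Leaving out any of the remaining 5 libraries moved the count by less than 1.5-fold. The tags present on both days, taken as a block over 8 libraries, gave 37 calls. Counts summed per letter gave 0 calls in edgeR at an adjusted p under 0.05 and 3971 at an unadjusted p under 0.05. Fragments of 1 letter may share a colony, so the p-values measure the spread between fragments within letters.

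The direction of the called features was also read in libraries outside the fit. When the A libraries were left out, 96 features were called in the rest, and 90 of them (93.8%) moved the same way in A, against 64.6% of all tested features. When BLY was left out, 40 of 42 did so (95.2%, against 62.9%). When B was left out, 252 of 339 did so (74.3%, against 57.9%). Without D, edgeR called 0 features at an adjusted p under 0.05, with 3436 at an unadjusted p under 0.05. Of the 143 features with an unadjusted p under 0.001 in that fit, 136 moved the same way in D (95.1%, against 62.2% of all). A test of whether the day effect itself differed between the A and D letters called 0 features in edgeR, with 1460 at an unadjusted p under 0.05, and 7 in DESeq2. Without A3 of day 5 edgeR called 8.

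Most changes were small, and the falls reached further than the rises. The median log2 change was 0.65 for rising features and -0.77 for falling ones. A change of 2-fold or more was reached by 36 rising and 104 falling features, and one of 4-fold or more by 2 rising and 49 falling features. At any p, 444 tested features differed 2-fold or more (1.72%), and 140 of these were called. The largest rise was 2.03 and the largest fall -5.31 on the log2 scale. Of all tested features, 9 in 10 lay between -0.53 and 0.53. The called features were more abundant than the tested ones, with a median of 24.6 CPM against 11.1 CPM. Of features averaging 1 to 10 CPM, 108 of 12273 were called (0.880%). Of those at 10 to 100 CPM, 324 of 11681 were called (2.77%), and of those at 100 CPM or more, 58 of 1919 (3.02%). The size of the changes ran the other way. From the lowest to the highest class, the median absolute log2 change of all tested features was 0.22, 0.14 and 0.12. Among the called, the median fall was -1.22, -0.63 and -0.46 and the median rise 0.98, 0.61 and 0.48. How far these shares and sizes follow from noisier estimates at low counts was not tested. The features that rose took 1.67% of coral counts at day 31 and 1.14% at day 5, and those that fell took 1.07% at day 31 and 1.98% at day 5.

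Among the 100 features with the highest mean CPM over all 48 libraries, 2 rose and 1 fell, against 1.89% called of all tested. An unadjusted p under 0.05 was seen in 30 of the 100 (19.2% of all tested), and 4 differed 2-fold or more (1.72% of all tested). Their median log2 change was -0.08 with a range of -1.62 to 0.67. The changed features lay in 487 Trinity components, the clusters of related sequences in which the assembler groups transcripts. Few components could hold more than 1 of them, since only 2798 of 22622 had 2 or more tested features. In 2 components 2 or more features were called, each time in 1 direction.

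**Figure D2:**
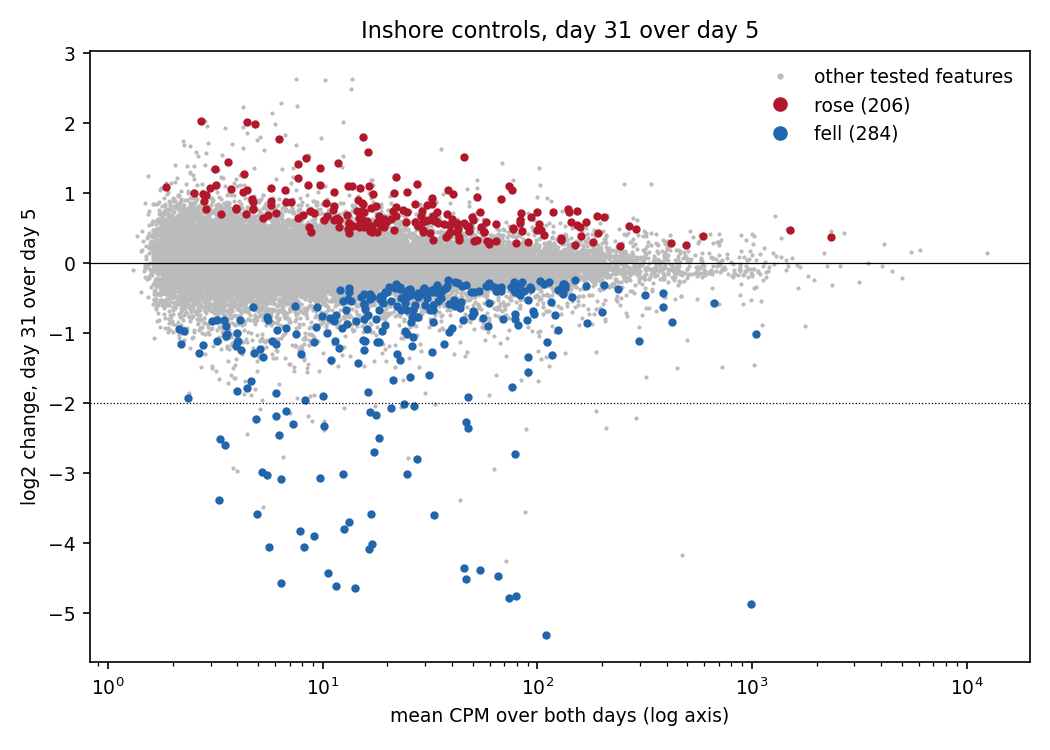
Log2 change of 25873 coral features, day 31 over day 5 in inshore controls, against their mean CPM (log axis); red points are the 206 that rose, blue points the 284 that fell and grey points all others. A scatter of blue points lies below the dotted line at -2, reaching -5.31, whereas only 2 red points show a rise of 4-fold or more and the highest is 2.03.

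Only 30 features separated the days completely (0.116% of those tested). In 17 every day 31 library lay above every day 5 library and in 13 every one lay below, and 26 of the 30 were among the called. Feature OFAVBQ_DN219691_c0_g1_i10 had the smallest p of all. At day 31 it stood at 38.4, 39.1 and 35.2 CPM in A2, A4 and A5, at 42.7 and 50.0 CPM in B2 and B3, at 44.9 CPM in BLY5 and at 41.8, 44.0 and 40.5 CPM in D4, D5 and D6. At day 5 it stood at 20.8, 22.2 and 30.7 CPM in A3, A4 and A6, at 23.1 CPM in B4, at 23.6 and 19.1 CPM in BLY5 and BLY6 and at 22.8, 23.6 and 19.9 CPM in D3, D5 and D6. The days do not overlap, and the nearest pair is A5 of day 31 and A6 of day 5, both of letter A. The means were 41.8 ± 4.29 CPM at day 31 and 22.9 ± 3.38 CPM at day 5 (SD, n = 9 each), a log2 change of 0.85 (SE 0.09, edgeR adjusted p = 0.0011).

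Feature OFAVBQ_DN218144_c2_g1_i1, the second by p among those that rose, is more abundant. It ran from 180 to 273 CPM at day 31, with a median of 241 CPM, and from 94.2 to 181 CPM at day 5, with a median of 151 CPM. The days met only at their edges: A2, the lowest library of day 31, lay just under D3, the highest of day 5, and within each letter the days were apart. The means were 232 ± 32.3 CPM at day 31 and 146 ± 29.4 CPM at day 5 (SD, n = 9 each), a log2 change of 0.68 (SE 0.08, edgeR adjusted p = 0.00226). With the tags as a block it was 0.79 (edgeR adjusted p = 0.0695).

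Feature OFAVBQ_DN211710_c4_g2_i4 fell. It ran from 14.1 to 26.4 CPM at day 31, with a median of 19.4 CPM, and from 23.7 to 39.2 CPM at day 5, with a median of 33.0 CPM. B2 and B3 were the highest libraries of day 31 and A6 and A4 the lowest of day 5, and between these 4 the days overlapped. The change within B, -0.25 on the log2 scale, was smaller than the -0.81 in A, -0.84 in D and -0.89 in BLY. The means were 19.6 ± 4.06 CPM at day 31 and 32.5 ± 5.46 CPM at day 5 (SD, n = 9 each), a log2 change of -0.77 (SE 0.11, edgeR adjusted p = 0.0152). With the tags as a block it was -0.86 (edgeR adjusted p = 0.0529).

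Feature OFAVBQ_DN220837_c2_g1_i1 also fell, at levels that differed between letters. It was the only 1 called of the 3 tested features in its Trinity component. At day 31 it stood at 126 CPM in BLY5 and between 53.1 and 70.8 CPM in the other 8 libraries. At day 5 it stood at 235 and 176 CPM in BLY5 and BLY6 and between 72.7 and 139 CPM in the others. BLY fragments were thus the highest on each day, and the days overlap only through BLY5 of day 31. The means were 68.7 ± 22.3 CPM at day 31 and 123 ± 52.8 CPM at day 5 (SD, n = 9 each), a log2 change of -0.69 (SE 0.11, edgeR adjusted p = 0.0152). With the tags as a block it was -0.81 (edgeR adjusted p = 0.0776).

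**Figure D3:**
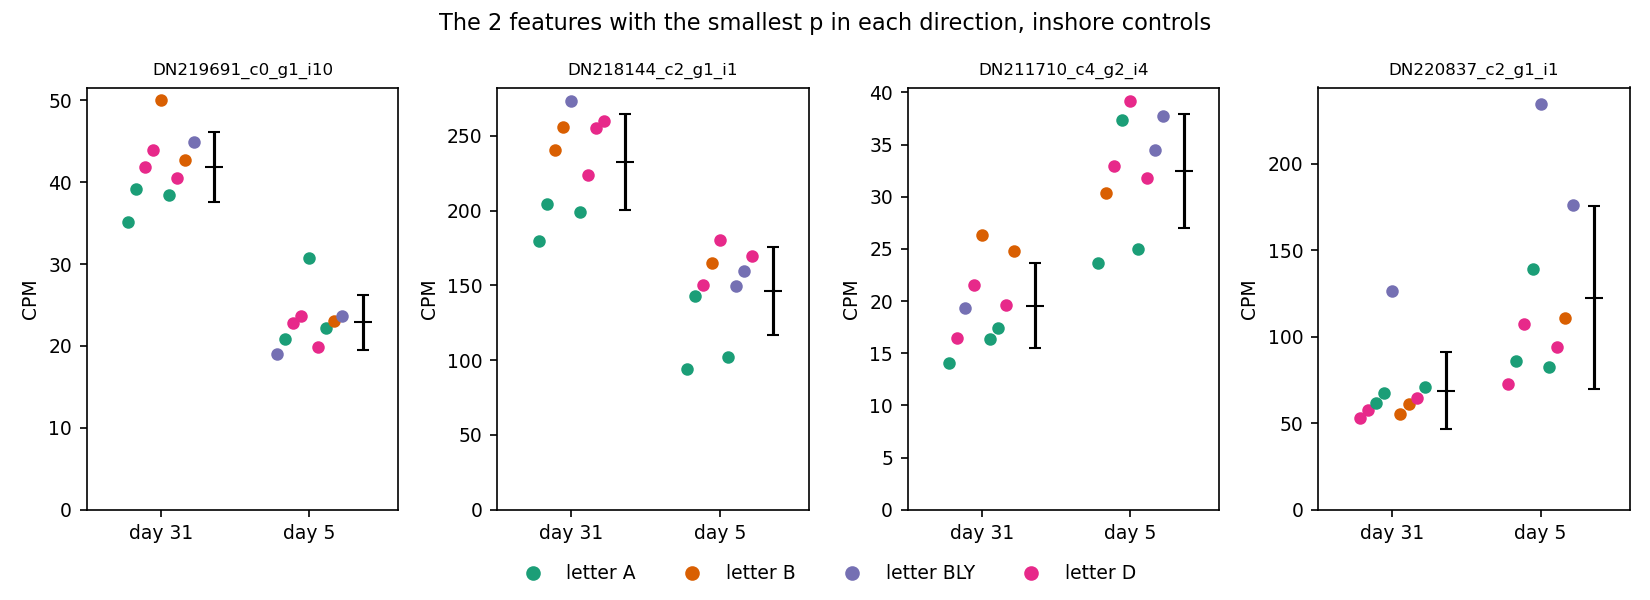
CPM of the 4 named features in inshore controls, day 31 left of day 5; each point is 1 of 9 libraries a day, coloured by letter, and bars give the mean ± SD. The left pair rose and the right pair fell; only DN219691_c0_g1_i10 shows no overlap, between 35.2 CPM at day 31 and 30.7 CPM at day 5.

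The 4 features differed in how they behaved outside these libraries. OFAVBQ_DN211710_c4_g2_i4 averaged 16.4 ± 3.37 CPM at day 31 and 26.1 ± 5.04 CPM at day 5 in inshore heated fragments (SD, n = 9 each), and fell there too, with a log2 change of -0.62 (edgeR adjusted p = 0.0277). In offshore controls it averaged 14.9 ± 1.01 CPM at day 31 and 23.6 ± 5.44 CPM at day 5 (SD, n = 3 each), a log2 difference of -0.62 that did not pass (edgeR adjusted p = 0.869). OFAVBQ_DN220837_c2_g1_i1 averaged 122 ± 105 CPM at day 31 and 275 ± 155 CPM at day 5 in inshore heated fragments (SD, n = 9 each), a fall of -1.14 on the log2 scale (edgeR adjusted p = 0.0359). Its offshore controls differed by -1.83 on the log2 scale, which did not pass (edgeR adjusted p = 0.869). Heated fragments stood at 32 °C at day 31 and 33 °C at day 5, so day and temperature cannot be told apart in them. OFAVBQ_DN219691_c0_g1_i10 averaged 31.5 ± 4.91 CPM at day 31 and 26.8 ± 5.80 CPM at day 5 in inshore heated fragments (SD, n = 9 each), a log2 difference of 0.23 (edgeR adjusted p = 0.261). In offshore controls its log2 difference was 0.24 (edgeR adjusted p = 0.904). Its day effect was smaller in heated fragments than in controls by 0.61 on the log2 scale, with an edgeR adjusted p of 0.0423 for the interaction term and 0.0641 without the B letter. The feature was picked for its change in the same control libraries, so this difference is no independent test. OFAVBQ_DN218144_c2_g1_i1 showed a log2 difference of -0.29 in heated fragments (edgeR adjusted p = 0.623) and of 0.19 without the B letter (edgeR adjusted p = 0.433). Its heated B2 and B3 libraries of day 31 stood at 34.5 and 15.5 CPM, and the other 7 of that group at 102 to 208 CPM. In offshore controls its log2 difference was -0.38 (edgeR adjusted p = 0.915), with 33.7 CPM in C4 of day 31 and 255 and 222 CPM in C2 and C5. In offshore heated fragments the differences of mean log2 CPM were -0.10 for OFAVBQ_DN211710_c4_g2_i4 and -2.19 for OFAVBQ_DN220837_c2_g1_i1. They were -0.04 for OFAVBQ_DN219691_c0_g1_i10 and 0.65 for OFAVBQ_DN218144_c2_g1_i1.

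The 49 features that fell at least 4-fold formed the far end of the list and were grouped after their values had been seen. Chosen for their fall, they have no test of their own here. Their summed level at day 31 was 251, 128 and 169 CPM in A2, A4 and A5, 903 and 438 CPM in B2 and B3, 148 CPM in BLY5 and 183, 533 and 138 CPM in D4, D5 and D6. At day 5 it was 7453, 893 and 383 CPM in A3, A4 and A6, 2888 CPM in B4, 3920 and 5786 CPM in BLY5 and BLY6 and 3884, 5434 and 4442 CPM in D3, D5 and D6. Of the day 5 libraries, 7 thus lay far above all of day 31, whereas A4 and A6 lay at the level of the highest day 31 libraries.

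The 49 features came from 49 Trinity components, and none was among the 100 most abundant of the series. A single feature nevertheless made up much of the summed level. The most abundant of the 49 averaged 131 CPM at day 31, with a range of 11.4 to 536 CPM, and 1852 CPM at day 5, with a range of 13.8 to 4563 CPM. The largest single contributor gave 10.5% to 59.4% of the sum in the libraries of day 31, and 38.6% to 61.9% in the 7 high libraries of day 5.

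In the other arms the same features also varied from library to library, and the medians were lower at day 31. In inshore heated fragments the summed level had a median of 342 CPM at day 31 (136 to 1163 CPM) and 3148 CPM at day 5 (157 to 4556 CPM). In offshore controls it was 135, 946 and 105 CPM in C2, C4 and C5 of day 31, and 124, 1360 and 2154 CPM in C1, C2 and C5 of day 5. In offshore heated fragments it was 201, 147 and 157 CPM in C2, C4 and C5 of day 31, and 184, 871 and 901 CPM in C1, C2 and C5 of day 5. C4 of the day 31 offshore controls (946 CPM) and B3 of the day 31 inshore heated fragments (1163 CPM) lay above the offshore heated libraries of day 5. Offshore, C1 was the lowest library of day 5 in both arms. A4 at day 5 was low in both inshore arms, with 157 CPM in the heated fragment and 893 CPM in the control, whereas A6 stood at 3400 CPM when heated and 383 CPM as a control. D5 at day 5 showed the opposite, with 321 CPM in the heated fragment and 5434 CPM in the control. Over the 30 libraries outside the inshore control comparison, the 49 features had a mean pairwise correlation of 0.49, against 0.00340 over all tested features. The other called features also lay above that value. It was 0.37 for those that rose under 2-fold and 0.13 for those that rose 2-fold or more. It was 0.19 for those that fell under 2-fold and 0.17 for those that fell 2- to 4-fold. The 30 libraries differ in habitat, arm and day, so these values are a description of how the features varied together.

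**Figure D4:**
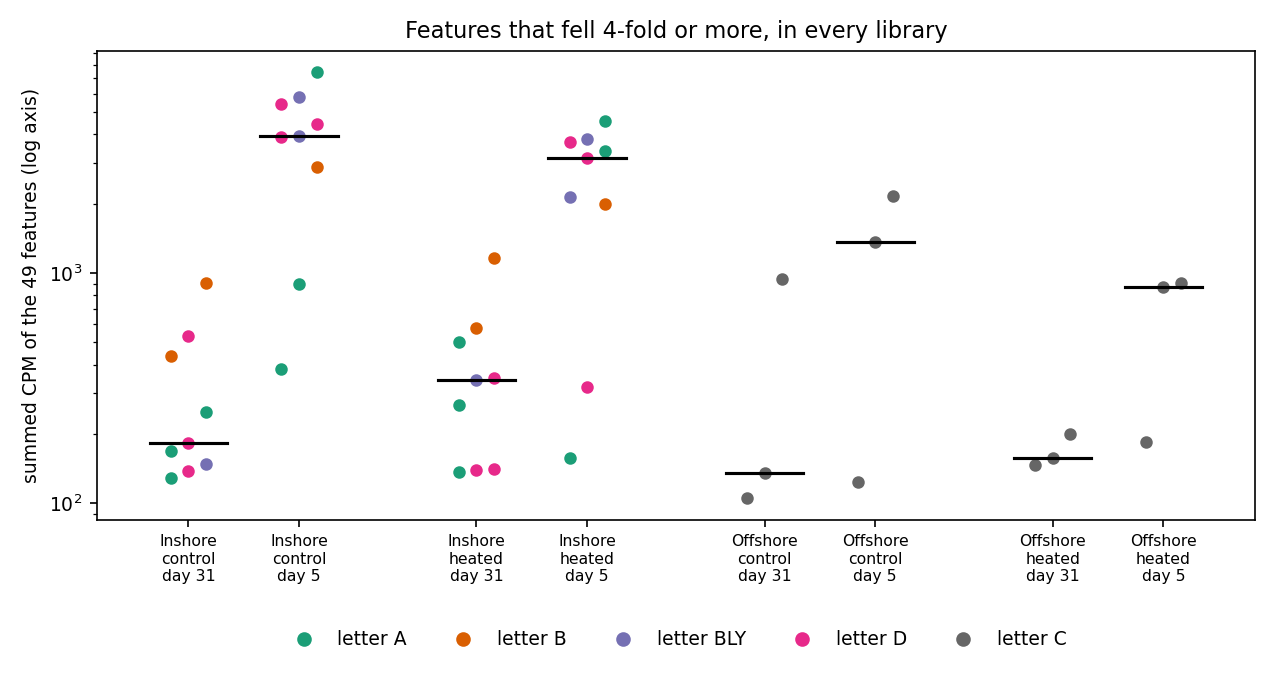
Summed CPM (log axis) of the 49 features that fell at least 4-fold in inshore controls, in each of 48 libraries by habitat, arm and day; points are libraries coloured by tag letter and bars are medians. The medians are 183 CPM at day 31 and 3920 CPM at day 5 in inshore controls, and in each of the other pairs of groups the day 31 median is also lower, although single day 5 libraries lie at the day 31 level.

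The 36 features that rose at least 2-fold, likewise grouped after their values were seen, were less uneven. Their summed level ran from 536 to 1009 CPM at day 31, with a median of 723 CPM, and from 218 to 418 CPM at day 5, with a median of 318 CPM. No day 5 library reached the lowest day 31 library. In inshore heated fragments the sum ran from 441 to 848 CPM at day 31 and from 223 to 432 CPM at day 5, again with no overlap. In offshore controls it had a median of 611 CPM at day 31 and 455 CPM at day 5, with no overlap. In offshore heated fragments it ran from 377 to 716 CPM at day 31 and from 421 to 424 CPM at day 5, where the days overlap.

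All 490 features were then read, without a further filter, in the 30 libraries that had no part in calling them. Of these, 3 heated inshore or offshore control libraries of day 31 stood apart by their scaling factor, which was 0.679 in the offshore control C4, 0.689 in the inshore heated B3 and 0.758 in the inshore heated B2, the lowest of the 48. The offshore heated fragments were 3 at 32 °C at day 31 and 3 at 33 °C at day 5, so day and temperature cannot be told apart in them. In these, 397 of the 490 features (81.0%) differed in the same direction as in inshore controls, against 60.9% of all tested features. There, 165 of the 206 that rose inshore were higher at day 31 and 232 of the 284 that fell were lower. Over all tested features, 50.6% were higher there and 49.4% lower.

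In offshore controls, 289 of the 490 (59.0%) had the same direction, against 53.8% of all tested features. Without C4 of day 31 it was 429 of the 490 (87.6%), against 65.9% of all. C4 was left out with its scaling factor known, which leaves 2 libraries at day 31 and 3 at day 5. Of the features that rose inshore, 72 of 206 were higher at day 31 with C4 and 158 of 206 without it. Of those that fell, 217 of 284 were lower with C4 and 271 without it. Over all tested features, 45.2% were higher and 54.8% lower with C4, and 46.3% and 53.7% without it. Tested on their own and with no block, the offshore controls gave 0 calls in edgeR at an adjusted p under 0.05. There were 995 features at an unadjusted p under 0.05, and DESeq2 made 2 calls. The difference of the day effect between offshore and inshore controls also gave 0 calls in edgeR, with 3988 at an unadjusted p under 0.05, and 41 in DESeq2. It gave 1003 without C2 of day 31 and 700 without C5 of day 31, the fits in which C4 is 1 of 2 offshore libraries of that day.

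In inshore heated fragments, where the temperature also differed between the days, 329 of the 490 (67.1%) had the same direction, against 59.5% of all tested features. Of the 284 that fell in controls, 225 were lower at day 31 there, and of the 206 that rose, 104 were higher. Over all tested features, 50.6% were lower and 49.4% higher. Without the B letter the count was 406 of the 490 (82.9%), against 64.1% of all, with 246 of 284 lower and 160 of 206 higher. All tested features were then 50.0% lower and 50.0% higher. Called on their own, the heated fragments changed in 1666 of 26657 features (6.25%), with 800 higher and 866 lower at day 31, and without the B letter in 2296 of 27515 (8.34%). Of 469 control-called features that could be tested there, 90 were called in the same direction, 15 higher and 75 lower, and 3 in the opposite direction. The 90 are 19.2% of those 469 and 5.71% of the 1575 heated calls that were also tested in controls.

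The day effect differed between the inshore arms in 346 of 31012 features (1.12%; interaction term, edgeR adjusted p under 0.05), 204 with a change further up in heated fragments and 142 further down. By library totals it was 222, of which 104 were further up and 118 further down, and without the B letter 226, of which 84 were further up and 142 further down. Among the 346 were 41 of the 490, of which 15 had risen and 26 had fallen in controls. The 490 were called from the control libraries that enter this difference, and in 402 of them it ran against the control change at any p, so their share is not read as a result. Heated fragments stood at another temperature on each day, so the arm and the temperature step cannot be told apart in this difference.

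**Figure D5:**
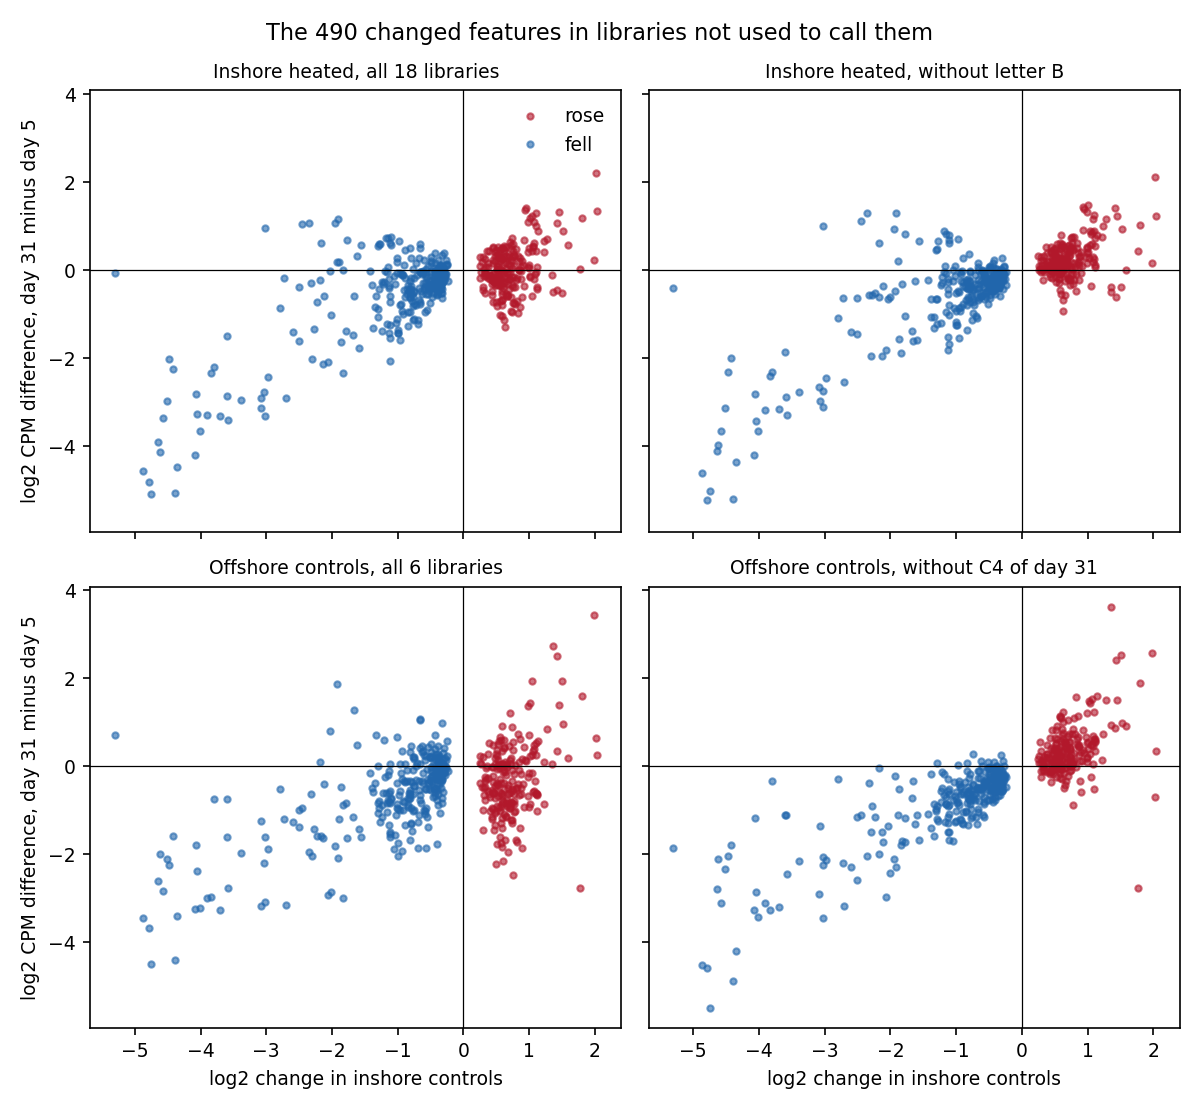
Log2 CPM difference, day 31 minus day 5 and adjusted for letter, of the 490 changed features in libraries not used to call them, against their log2 change in inshore controls; red features rose and blue features fell there. The panels show inshore heated libraries with and without letter B (67.1% and 82.9% of features in the same direction) and offshore controls with and without C4 of day 31 (59.0% and 87.6%). Letter B and C4 were left out with the scaling factors known.

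The features that offshore corals changed under heat were also read between the days. In the offshore heat response at day 5, edgeR called 1 of 26935 features (0.00371%), so the list was taken from DESeq2 as a description. Of its 191 features that were higher in heat, 174 were tested here, of which 5 rose and 3 fell, with a median log2 change of -0.09. Over all tested features 0.796% rose and 1.1% fell, and the median was 0.00106. Of its 309 that were lower in heat, 306 were tested here, of which 4 rose and 18 fell, with a median of -0.04.

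The algal share of all counts averaged 15.1% ± 2.45 at day 31, with a range of 12.2% to 19.5%, and 17.3% ± 2.46 at day 5, with a range of 14.2% to 21.3% (SD, n = 9 each). Set against the coral counts of the same library, algal counts were lower at day 31 within letters (log2 difference -0.24, exact permutation p = 0.0306), which did not pass after adjustment over the 4 single values tested (adjusted exact permutation p = 0.0633). The log2 difference was -0.32 in A, -0.33 in D and -0.23 in B, and 0.15 in BLY. Over the tags present on both days it was -0.21 in A4, -0.42 in D5 and -0.36 in D6, and 0.46 in BLY5.

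The algal counts were made up differently from fragment to fragment. Over the 30 other libraries of the series, most of the variation followed 2 groups of algal features that vary against each other. In the inshore controls, of the counts in either group, the first group held 74.5%, 97.6% and 86.0% in A2, A4 and A5 of day 31. It held 97.2%, 99.3% and 99.7% in A3, A4 and A6 of day 5. In D it held 0.111%, 35.8% and 8.21% in D4, D5 and D6 of day 31, and 9.35% and 65.1% in D3 and D6 of day 5, with D5 between these. B2 and B3 of day 31 stood at 99.5% and 0.536%, and B4 of day 5 at 0.648%. All BLY libraries stayed under 1%, with 0.556% at day 31 and 0.402% and 0.970% at day 5. The 76 tested coral-table features that followed the amount of either group across the 30 other libraries gave 0 calls in edgeR between the days, where 1.89% of all tested features were called, and without all 110 such features 498 of the others were called. Their median log2 change was -0.23, against 0.00106 for all tested features.

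No measure of the breadth of the coral transcriptome passed the adjusted test. At an equal depth of 4726360 counts, 54361 ± 2267 features were detected at day 31 and 51935 ± 2065 at day 5 (SD, n = 9 each). The difference within letters was 2205 features (exact permutation p = 0.0317, adjusted over the 4 values 0.0633). The 100 most abundant features took 15.6% ± 1.08 of coral counts at day 31 and 15.6% ± 0.864 at day 5 (SD, n = 9 each; exact permutation p = 0.607). The effective number of features, a measure of evenness, was 8163 ± 572 at day 31 and 7879 ± 545 at day 5 (SD, n = 9 each; exact permutation p = 0.348).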

How the data were processed

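The authors deposited estimated counts for assembled transcripts, in 1 table for coral and 1 for algal features. Both tables are named for kallisto, while the submitters' processing notes name Trimmomatic 0.36 and RSEM. Neither the tool that made the counts nor its reference is stated. Libraries were stranded mRNA libraries from column-extracted RNA, per the labels' protocols. Such counts may divide reads among similar transcripts, so features are sequences rather than genes. Of the coral values 23.2% were not whole, and all were rounded. A coral column with the tag BL6 was assigned to BLY6 (control, day 5), for which no other column remained.

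Features passed filterByExpr on the 2 groups and were fitted with TMM factors in edgeR 4.0.16 (R 4.3.3) as a quasi-likelihood model with the tag letter as a block. Adjusted p-values (Benjamini-Hochberg) cover all features tested, with a threshold of 0.05. SEs were taken as the log2 change over the root of F. Printed CPM use TMM factors over all 48 libraries, and log2 CPM a prior count of 2. Differences in libraries outside the comparison are letter-adjusted differences of mean log2 CPM. Alternatives were DESeq2 1.42.0, limma 3.58.1 (voom), other scaling, no filter, other blocks, summed counts and leaving out each library or letter. The main edgeR fit and the permutation within letters were run on simulated data. Each library was drawn on its own there, so shared colonies were not covered. Detected features are the number expected after thinning to the smallest library. Single values were tested by exact two-sided permutation of the day within letters.

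The 2 algal groups are features of the second table that correlated at 0.9 or more, on either side, with principal component 1 over the 30 other libraries. Coral features following either had a Spearman correlation of 0.8 or more with its amount. The widest 95% Wilson interval of an algal share was ±0.0320 percentage points and covers counting error only.

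Features are named where their p was among the 2 smallest of those that rose or of those that fell. The members and lists were chosen with earlier results of these data known. The table holds 1 isoform per Trinity gene, so isoforms could not be compared and components were used instead. The 4 tags on both days were used as pairs in 1 alternative, where every pair of deviations correlated above 0.1 (0.55 to 0.66). Other tags of the letters A, D and BLY correlated at 0.46 to 0.65 across the days. The cut of 0.1 therefore cannot tell a shared tag from a shared letter. No pair of libraries within a group agreed within sampling noise (72 pairs, chi-square over its degrees of freedom at least 3.84). The labels do not say whether fragments came from separate colonies, so p-values measure the spread between fragments.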

Additional observations from a re-analysis of the deposited data

Results flagged for a closer look

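In 24 groups of 9 libraries checked for 1 library far from the rest, 3 stood apart, and chance alone gives about 1 in 20. OFAVBQ_DN220837_c2_g1_i1 stood at 126 CPM in BLY5 of the day 31 inshore controls, with a gap to the next library of 0.758 of the group's range. OFAVBQ_DN219691_c0_g1_i10 stood at 30.7 CPM in A6 of the day 5 inshore controls, the highest of that day, with a gap of 0.611 of the range. OFAVBQ_DN211710_c4_g2_i4 stood at 8.84 CPM in the inshore heated B3 of day 31, the lowest there, with a gap of 0.53 of the range, and B3 had 1 of the lowest scaling factors of the series. The day effect differed between heated and control inshore fragments in 346 features by the interaction term in edgeR.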

How the results depend on the processing

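The count of 490 changed features gave 492 with RLE factors, 445 by library totals, 393 in limma-voom, 683 with the genotype label as the block, 490 with unrounded counts and 488 per Trinity component, the last chosen after seeing the data. Summing per Trinity gene leaves the table as it is, since no gene has more than 1 feature. It moved further to 966 with no filter (286 rose, 680 fell), 1367 in DESeq2, 209 with no letter block, 37 with the replicate block of 4 tags and 73 with all 24 control libraries in 1 fit. Summed per letter and with A and D only it was 0 in edgeR, with 3971 and 3884 features at an unadjusted p under 0.05. Without 1 letter it was 96 (A), 42 (BLY), 0 (D) and 339 (B), and 312 without B by library totals, chosen after seeing the data. Without 1 library it ranged from 4 to 968. In none of 36 alternatives did a named feature reverse, and between 3 and 7 alternatives each took it past 0.05. The habitat difference of 0 became 41 in DESeq2 and ranged from 0 to 1003 without 1 offshore library, and by library totals its median over all features shifted to -0.12, against 0.02. The offshore day effect became 2 in DESeq2. The arm difference of 346 became 764 in DESeq2, 222 by library totals and, chosen after seeing the data, 226 without B. The A and D difference became 7 in DESeq2 and 0 to 8 without 1 library. Alternatives for the heated and offshore heat contrasts were chosen after seeing the data. The heated count of 1666 became 2944 in DESeq2, 1013 by library totals and 2296 without B. The offshore heat count of 1 became 500 in DESeq2, 0 by library totals, 0 with no replicate block and 19 to 789 without 1 library. The algal log2 difference was -0.24 when permuted over all 18 libraries (permutation p = 0.0708), -0.13 with the replicate block of tags (exact permutation p = 0.625, where 4 pairs allow no p below 0.05) and -0.31 to -0.20 without 1 library (exact permutation p 0.00167 to 0.0594). The gain in detected features was 1638 to 2792 without 1 library (exact permutation p 0.00222 to 0.0783). The share of the 100 most abundant features differed by 0.17 percentage points and by -0.023 to 0.41 without 1 library. The cause of these shifts was not tested. With 4 letters and 1 or 2 B and BLY libraries a day, the precision rests on few sources.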
